A study of Mus musculus with 2 samples.

Results

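The genes described here are 39 type I interferon-stimulated genes of the mouse, chosen by name, and 38 of them were found by symbol among the 31253 genes of both count matrices. Mx2 is not analysed here. The counts came from 2 single-cell libraries of the 10x 5′ chemistry, made from live CD45+ leukocytes sorted from tumour-bearing livers. The tumours were metastases of the mouse melanoma line B16F10. One library was from WT mice and the other from mice without Vsig4, a complement receptor of the immunoglobulin superfamily that is best known on liver-resident macrophages. Both carried the tumour, and the labels used here do not give the strain, the age or the number of mice behind a library. With 1 library per genotype there was no replicate, so a difference below is a difference between these 2 libraries, no test was made, and every interval covers counting error only. Vsig4 itself had 43 UMIs in 19 WT cells and 3 UMIs in 3 Vsig4 KO cells.

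Type I interferons bind the receptor Ifnar1/Ifnar2, whose kinases phosphorylate Stat2. With Irf9 it forms a complex that binds interferon-stimulated response elements near its target genes. The products of those genes sense nucleic acids, cut or hide viral RNA, block viral entry and release, and, through Usp18, damp the receptor again. Plasmacytoid dendritic cells (pDC) are specialised makers of type I interferon and hold Irf7, the factor behind that capacity, ready in the resting state.

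The members were divided by role into 4 sensors (Ifih1, Dhx58, Zbp1, Ifi204), 4 signalling and feedback genes (Stat2, Irf9, Irf7, Usp18), 2 genes of the ubiquitin-like ISG15 system (Isg15, Herc6), 5 IFIT and translation genes (Ifit1, Ifit2, Ifit3, Ifit3b, Eif2ak2), 5 OAS family genes (Oas1a, Oas2, Oas3, Oasl1, Oasl2), 8 restriction and other antiviral effectors found here (Rsad2, Cmpk2, Isg20, Bst2, Ifitm3, Trim30a, Parp14, Sp100), 3 Schlafen genes (Slfn1, Slfn5, Slfn8) and 7 other induced genes (Ifi44, Ifi47, Ifi35, Ifi27l2a, Xaf1, Phf11b, Rtp4). In the mm10 build they lay on 15 chromosomes. There were 6 groups of members less than 500 kb apart, the largest being the 4 Ifit genes on chromosome 19 between 34550694 and 34650009. Some are near copies of another gene: 57.6% of the 50-base words of the Oas1a transcripts also occurred in another gene, most often Oas1g, and the share was 51.2% for Ifit3 and 45.0% for Ifit3b, most often each other. Phf11b (38.8%, with Phf11a) and Ifi204 (19.5%, with Ifi211) also passed 10%, so how the counting divided UMIs among these copies is uncertain for all 5. Irf9 overlaps Rnf31, and Ifi47 overlaps Olfr56, on the same strand, which makes their counts uncertain too.

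The feature that ties the members to the pathway at the level of DNA can be read from their promoters, and 6 are printed. Isg15, Slfn5, Ifit3 and Oasl1 are shown because differences below turn on them, Bst2 because it gave most member UMIs of pDC, and Ifit3b because it is a near copy of Ifit3. Each is the 250 bases before the RefSeq start site in GRCm38.p6, written 5′ to 3′ in the direction of the gene. Capitals mark every pair of GAAA words with any 2 bases between them, or the other-strand form of that pair (TTTC, any 2 bases, TTTC), which is the repeated core of the interferon-stimulated response element. Overlapping matches were counted separately.
Isg15: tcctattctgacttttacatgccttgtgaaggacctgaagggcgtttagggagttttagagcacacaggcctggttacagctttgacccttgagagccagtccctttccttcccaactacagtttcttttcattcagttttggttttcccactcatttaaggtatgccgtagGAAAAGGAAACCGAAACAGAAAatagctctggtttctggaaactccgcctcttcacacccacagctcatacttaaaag
Bst2: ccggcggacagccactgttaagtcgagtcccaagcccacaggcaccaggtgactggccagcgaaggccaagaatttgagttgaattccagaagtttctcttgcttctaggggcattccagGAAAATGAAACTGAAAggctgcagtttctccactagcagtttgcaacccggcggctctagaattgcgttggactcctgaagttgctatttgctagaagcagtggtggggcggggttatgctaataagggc
Slfn5: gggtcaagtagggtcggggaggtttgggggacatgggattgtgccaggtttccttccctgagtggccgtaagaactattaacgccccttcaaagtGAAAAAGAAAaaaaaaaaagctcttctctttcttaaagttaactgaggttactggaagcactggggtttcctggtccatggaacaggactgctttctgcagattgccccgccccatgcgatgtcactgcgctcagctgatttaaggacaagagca
Ifit3: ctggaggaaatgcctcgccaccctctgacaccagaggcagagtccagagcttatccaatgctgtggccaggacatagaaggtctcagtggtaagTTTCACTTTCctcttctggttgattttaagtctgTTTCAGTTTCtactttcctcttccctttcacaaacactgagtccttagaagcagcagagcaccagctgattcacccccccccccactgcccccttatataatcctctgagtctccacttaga
Ifit3b: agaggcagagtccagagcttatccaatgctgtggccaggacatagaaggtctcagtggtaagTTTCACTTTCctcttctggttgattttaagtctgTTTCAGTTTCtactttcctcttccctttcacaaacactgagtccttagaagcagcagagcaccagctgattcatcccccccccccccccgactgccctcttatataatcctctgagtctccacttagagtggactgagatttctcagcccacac
Oasl1: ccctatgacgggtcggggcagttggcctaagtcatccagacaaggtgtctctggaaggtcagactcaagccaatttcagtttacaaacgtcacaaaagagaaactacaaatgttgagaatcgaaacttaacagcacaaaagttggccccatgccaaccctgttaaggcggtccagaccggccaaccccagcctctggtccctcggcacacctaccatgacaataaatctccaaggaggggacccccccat
The stretches are chr4:156200819-156201068, minus strand (Isg15), chr8:71537473-71537722, minus strand (Bst2), chr11:82951852-82952101, plus strand (Slfn5), chr19:34583279-34583528, plus strand (Ifit3), chr19:34607707-34607956, plus strand (Ifit3b) and chr5:114922990-114923239, plus strand (Oasl1). Isg15 held 3 overlapping matches, their centres between 73 and 61 bases before the start. Bst2 held 2 overlapping matches and Slfn5 held 1. Ifit3 and Ifit3b each held 2, on the other strand and inside a stretch of 169 bases that is identical in both genes. Oasl1 had no match to these letters in this window, which says nothing on the factor. Promoter windows were matched for 30 of the 38 members. Over the full window, which adds 50 bases after the start, 16 of the 30 (53.3%) held a match, against 3.99% of the 27025 genes with a window. The 14 others included Irf7, Irf9, Sp100, Ifi47, Ifit2 and Xaf1.

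After filtering, 6491 WT and 5479 Vsig4 KO cells were kept, with medians of 3034 and 3260 UMIs per cell. Of the barcodes, 54 occurred in both libraries, 48 of them among kept cells. A cell entered a class when it held UMIs of at least 3 marker genes of that class, none of them a member, which placed 78.1% of WT and 82.1% of Vsig4 KO cells. Own markers of 3 or more are fixed by this rule and do not check it. Markers of other classes occurred too, most of all in pDC. On average pDC held 2.25 (WT) and 2.32 (Vsig4 KO) of the 6 markers of conventional dendritic cells of type 2. Kupffer cells, the resident macrophages that carry Vsig4, accounted for 19 of 275 macrophages in WT and 9 of 176 in Vsig4 KO. Melanoma genes stayed at or under 58.0 UMIs per 1000000 UMIs (CPM) in every class. The sort selected CD45+ cells, so shares of classes are shares of sorted leukocytes. CPM below is the UMIs of a gene divided by all UMIs of that class and library. Since each molecule is counted once at its 5′ end, CPM has no term for transcript length.

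Classical monocytes had the highest summed level of the members in both libraries. The 38 members gave 8386 CPM in WT and 7858 CPM in Vsig4 KO classical monocytes. In the WT library non-classical monocytes followed with 7037 CPM, then conventional dendritic cells of type 2 (cDC2, 5468 CPM) and pDC (5403 CPM). In the Vsig4 KO library pDC followed with 6188 CPM, then non-classical monocytes with 6155 CPM in only 15 cells and cDC2 with 5498 CPM. The intervals of pDC and non-classical monocytes overlapped in the Vsig4 KO library, and those of cDC2 and pDC in the WT library. B cells (1689 and 1602 CPM), mature dendritic cells (1195 and 1396 CPM) and NK cells with ILC1 (1197 and 1262 CPM) were low. Basophils and mast cells were lowest at 684.1 and 867.9 CPM, from 30 and 22 cells. The intervals of mature dendritic cells and NK cells overlapped in each library.

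**Figure D1:**
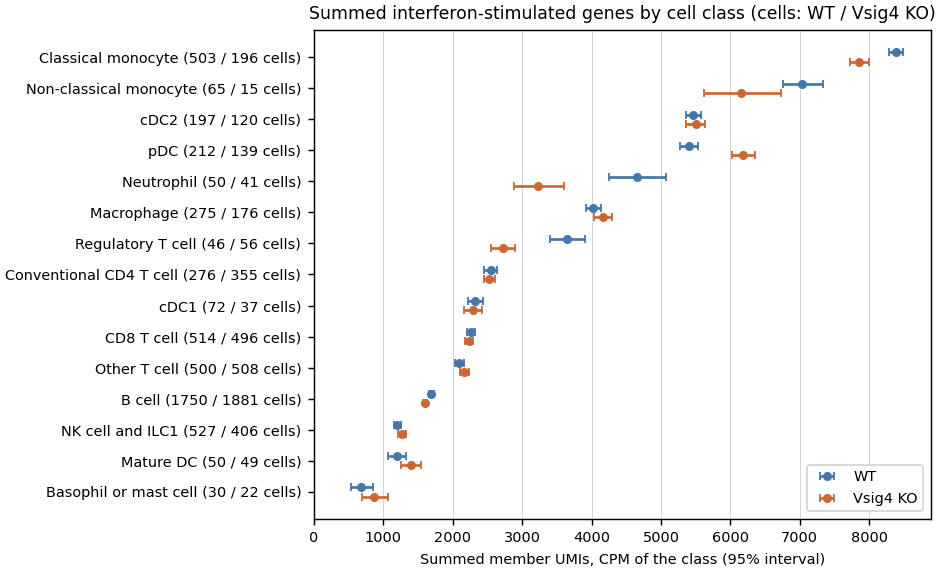
Summed UMIs of the 38 members in CPM (x axis) in each of 15 cell classes (y axis, with cell numbers), for the WT and the Vsig4 KO library; points are the 2 libraries and bars 95% counting intervals. Classical monocytes lie highest at 8386 and 7858 CPM, and the widest gap downwards from WT to Vsig4 KO is in neutrophils (4649 and 3226 CPM).

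A few genes made up a large part of these sums, and their levels differed between cell classes. Ifitm3, which blocks fusion of viruses in endosomes, had the most UMIs of the members (43026). It was at 4189 and 3669 CPM in classical monocytes, 2993 and 2957 CPM in cDC2 and 1333 and 1351 CPM in macrophages. In pDC it was at 28.5 and 27.9 CPM, in CD8 T cells at 7.73 and 16.7 CPM, and WT regulatory T cells held no Ifitm3 UMI. At 1000 UMIs per cell, 88.3% of WT and 88.7% of Vsig4 KO classical monocytes held an Ifitm3 UMI (95.8% and 96.4% unthinned), against 2.21% and 0.865% of B cells (4.46% and 2.71% unthinned). B cells had a median depth of 2422 and 2812 UMIs, against 6296 and 7507 in classical monocytes. The part of free RNA in the B cell shares was not tested.

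Bst2, or tetherin, holds budding virions at the cell surface and is also a surface marker of mouse pDC, though it was not used in the gate. It was at 3684 CPM in WT and 3695 CPM in Vsig4 KO pDC, and the next class, cDC2, was at 615.2 and 640.0 CPM. Its UMIs were 68.2% of all member UMIs in WT pDC and 59.7% in Vsig4 KO pDC, so the summed level there is largely a level of Bst2. Ifi27l2a, which encodes a small membrane protein, had 33699 UMIs and was highest in regulatory T cells of the WT library (2161 CPM) and in classical and non-classical monocytes. It reached only 14.0 and 6.67 CPM in NK cells.

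Sp100, a component of nuclear bodies, was broad. It was highest in B cells (386.7 and 427.7 CPM) and lowest among the classes of at least 30 cells per library in mature dendritic cells (62.7 and 47.5 CPM). Trim30a was highest in pDC at 242.9 and 249.7 CPM. Ifi47, an interferon-inducible GTPase, had its highest level in T cells, with 137.6 and 126.9 CPM in conventional CD4 T cells and 134.7 and 145.1 CPM in CD8 T cells. Ifi35 and Phf11b were highest in cDC1 in both libraries, at 130.6 and 138.8 CPM and at 138.4 and 132.7 CPM. Slfn5 was highest in classical monocytes, at 172.9 and 172.8 CPM, and Slfn1 in neutrophils, at 487.4 and 373.0 CPM.

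**Figure D2:**
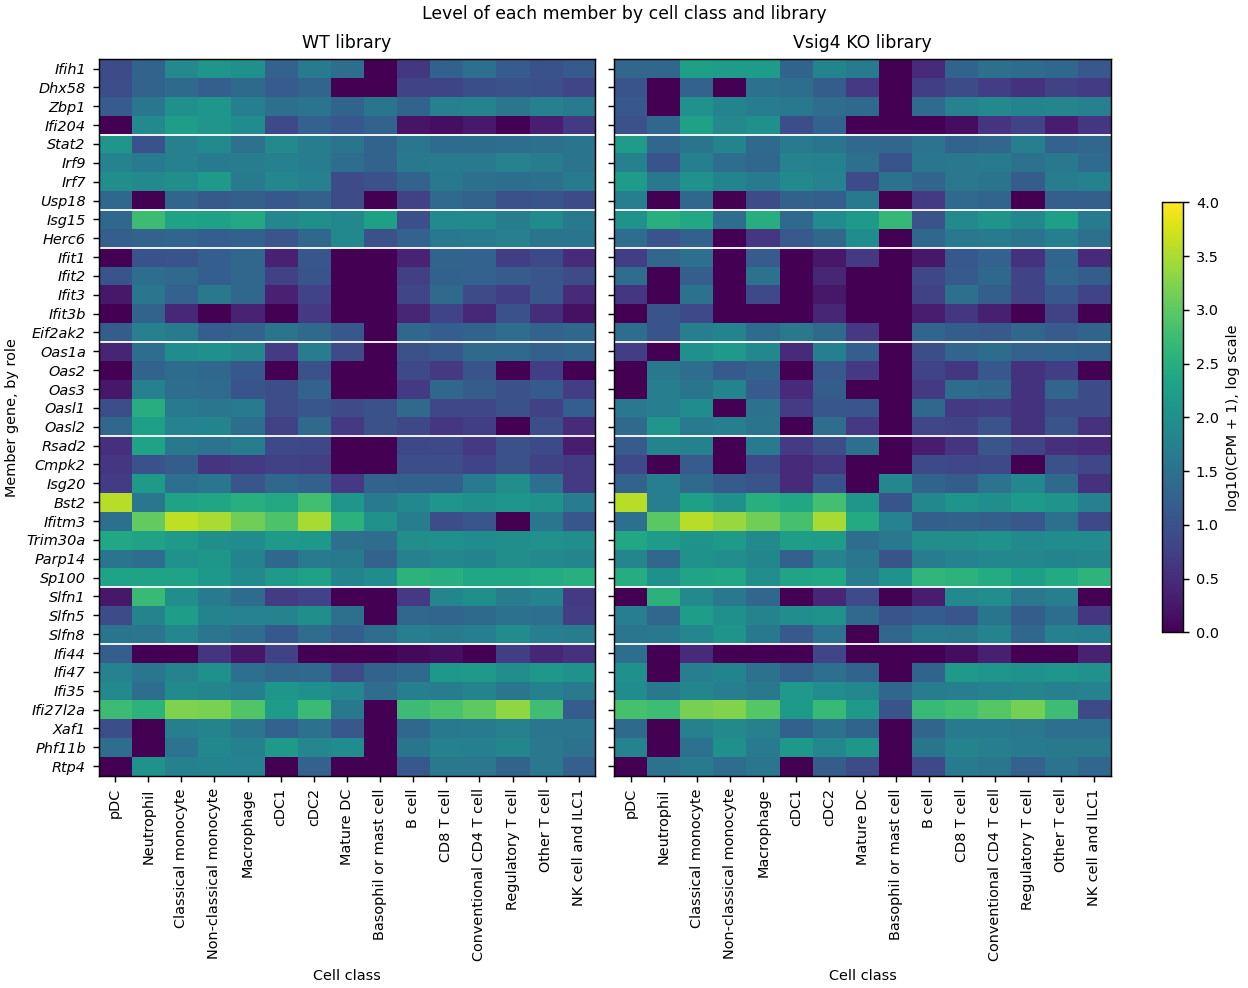
Level of each of the 38 members (rows, divided by role by white lines) in 15 cell classes (columns) as log10(CPM + 1), with the WT library on the left and the Vsig4 KO library on the right. Bst2 in pDC (3684 and 3695 CPM) and Ifitm3 in classical monocytes (4189 and 3669 CPM) stand out in both panels.

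The class with the highest level was the same in both libraries for 18 of the 38 members. In the WT library neutrophils were the top class of 11 members, among them Isg15 (541.6 CPM), Oasl1 (306.9 CPM), Rsad2 (198.6 CPM) and Oasl2 (189.6 CPM). In the Vsig4 KO library neutrophils were the top class of 5 members and classical monocytes of 11, against 6 in WT. Neutrophils were also the smallest compared class by UMIs, with 110782 and 99194 in all. Of the 50 WT neutrophils 20% held an Isg15 UMI, 10% Oasl1, 26% Rsad2 and 28% Oasl2, and 2 cells held 28 of the 60 Isg15 UMIs.

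For the comparison of the libraries a member counted as measured in a class with at least 20 UMIs over both libraries. It was called when the 2 levels were at least 1.5-fold apart and the 95% interval of the ratio left out 1. Classes were compared when both libraries held 30 cells or more, which left 13. Beside each count of called members stands the share of all genes called by the same rule in that class.

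More members were called higher in pDC than in any other class, and for Isg15, Slfn5 and Oasl1 most of the UMIs behind the call lay in a few cells. There were 212 WT and 139 Vsig4 KO pDC. Of 26 measured members 12 were called higher in Vsig4 KO and 0 lower, where 3.24% of all 8006 measured genes were called higher and 2.99% lower. The median log2 ratio of the measured members was 0.79 against 0.00 over all measured genes. The 12 called genes came from every role: Ifih1, Irf7, Usp18, Isg15, Ifit2, Oasl1, Isg20, Parp14, Slfn5, Ifi47, Xaf1 and Phf11b. The summed members had a ratio of only 1.15 (1.105 to 1.19), since Bst2, with 4519 UMIs in WT and 3314 in Vsig4 KO, had a ratio of 1.003. Without Bst2 the ratio of the sum was 1.45.

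Isg15, the ubiquitin-like modifier, had 26 UMIs in 18 WT pDC and 99 UMIs in 19 Vsig4 KO pDC. That is 21.2 against 110.4 CPM, a ratio of 5.21 (3.35 to 8.36), and the share of pDC with an Isg15 UMI was 8.49% and 13.7%. A single Vsig4 KO cell held 31 of the 99. Slfn5, a Schlafen protein of the nucleus, had 9 UMIs in 8 WT cells and 46 in 11 Vsig4 KO cells, a ratio of 6.99 (3.38 to 16.2). Oasl1, which limits Irf7 translation, had 10 UMIs in 8 cells and 35 in 13 cells, a ratio of 4.79 (2.32 to 10.8). Ifit2, which binds viral RNA, had 12 UMIs in 12 WT cells and 23 UMIs in only 6 Vsig4 KO cells, 13 of them in one cell. The share of positive cells was 3.77% and 7.91% for Slfn5, 3.77% and 9.35% for Oasl1 and 5.66% and 4.32% for Ifit2, and all 4 genes had more UMIs per positive cell in Vsig4 KO.

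Irf7, the factor that drives interferon genes in pDC, was spread over more cells than these 4. It had 114 UMIs in 72 WT pDC (34.0%) and 141 UMIs in 66 Vsig4 KO pDC (47.5%), a ratio of 1.69 (1.31 to 2.18). At 1000 UMIs per cell the shares were 7.11% (4.03 to 11.5%) and 18.9% (12.6 to 26.7%), and these intervals do not overlap. For Isg15 the shares at that depth were 3.79% (1.65 to 7.33%) and 6.82% (3.16 to 12.5%), which do overlap. Cells of 1 library are not replicates of a genotype. Usp18, the protease that takes Isg15 off proteins and blocks the receptor, had 25 UMIs in 20 cells and 46 in 22 cells, a ratio of 2.52 (1.51 to 4.27). At 1000 UMIs per cell its shares were 1.42% and 1.52%. Isg20, an exonuclease, had 5 UMIs in 4 cells and 16 in 12 cells, a ratio of 4.38 (1.53 to 15.3). The other 5 called members (Ifih1, Parp14, Ifi47, Xaf1, Phf11b) had ratios from 1.73 to 2.87. Stat2, at 121.5 and 156.1 CPM, and Irf9, at 61.1 and 55.7 CPM, were not called.

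Of the 139 Vsig4 KO pDC 7 (5.04%) held UMIs of 15 or more distinct members, against 1 of 212 WT pDC (0.472%). Those 7 cells held between 19 and 29 distinct members, and they held 82 of the 99 Isg15 UMIs, 35 of the 46 Slfn5 UMIs and 28 of the 35 Oasl1 UMIs of the class. They carried 5 or 6 of the 6 pDC markers and between 5290 and 12483 UMIs, with a median of 8737 against the class median of 6597. Each also held between 1 and 4 markers of another dendritic list, where Vsig4 KO pDC held 2.32 cDC2 markers on average. The 1 WT cell held 5 cDC2 markers. Whether doublets remain among these cells was not tested. None of the 7 held a UMI of an interferon ligand. Apart from Bst2, Ifi27l2a and Ifitm3, the 7 Vsig4 KO pDC with the most member UMIs held 35.7% of the member UMIs of the class, and the 11 such cells of WT held 17.7%. The median pDC held 6 distinct members in both libraries. With every cell at 1000 UMIs, 8 of 211 WT pDC (3.79%, 1.65 to 7.33%) and 15 of 132 Vsig4 KO pDC (11.4%, 6.50 to 18.0%) held 5 or more members.

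When the 5% of pDC with the most distinct members were left out of each library, an alternative added after the data had been seen, 0 of the 20 members still measured were called. The summed ratio was then 1.06. Isg15 had a ratio of 1.29, Oasl1 1.36 and Irf7 1.45, and Ifit2 reversed to 0.136. Irf7 kept an interval above 1 (1.08 to 1.94), and so did Isg20 (ratio 6.82, 1.45 to 64.0), which then lay under the minimum of 20 UMIs. These cells were picked by the members' own counts, so the values describe how concentrated the excess was.

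**Figure D3:**
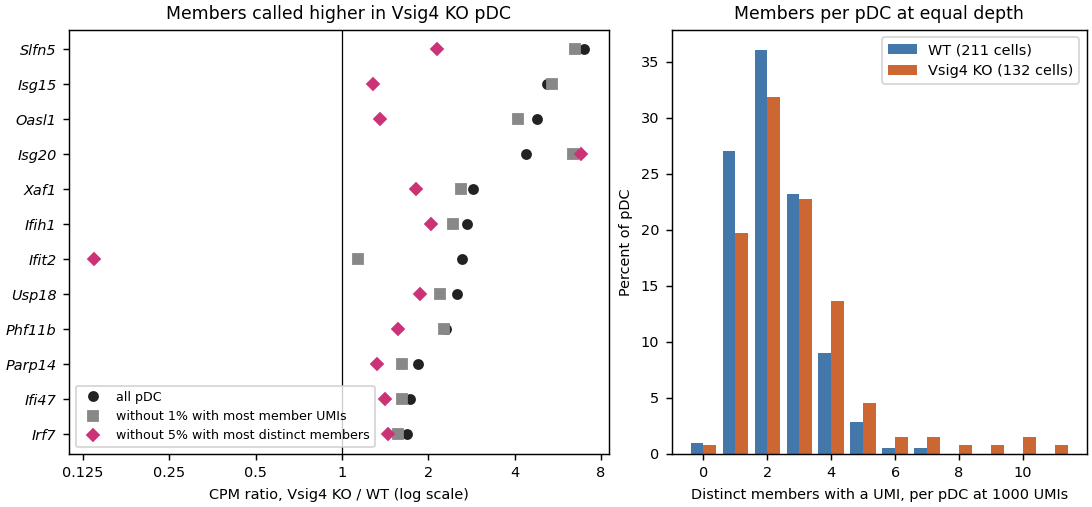
Left, ratio of Vsig4 KO to WT CPM (log axis) of the 12 members called higher in pDC, over all pDC, without the 1% of cells with the most member UMIs and without the 5% with the most distinct members; the ratio of Isg15 goes from 5.21 to 1.29 in the last of these. Right, percent of pDC by number of distinct members at 1000 UMIs per cell, where 3.79% of WT and 11.4% of Vsig4 KO pDC hold 5 or more.

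Other measures differed between the pDC of the 2 libraries too. Genes of the dissociation stress response summed to 6563 CPM in WT and 3103 CPM in Vsig4 KO pDC. Klk1, one of the gate markers, was found in 58.0% and 82.7% of pDC, while Siglech was in 100% and 98.6%. The median depth was 5719 and 6597 UMIs, and a list of 6 endothelial genes stood at 145.9 and 218.5 CPM. The part of these in the pDC result was not tested.

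Genes of the pathway outside the members were read in pDC from lists made by name. The 10 interferon ligands on the list had 1 UMI in WT pDC and 0 in Vsig4 KO pDC. None of the 6 receptor and kinase genes on the list was called, and Ifnar1 was at 155.7 and 207.4 CPM. Tlr9, the endosomal DNA sensor of pDC, was called higher (36.7 and 70.2 CPM), as was Socs3, an inhibitor of cytokine receptors (82.3 and 123.8 CPM). Of 33 measured further interferon-induced genes 5 were called higher (Ifi207, Ifi27, Lgals3bp, Pml, Ube2l6) and 1 lower (Epsti1, 142.6 and 87.0 CPM). Among 11 measured genes that lean to interferon-gamma, Iigp1, Nlrc5 and Tap1 were called higher and Cd274, which encodes PD-L1, lower. Iigp1 had 5 UMIs in 5 WT cells and 34 UMIs in 12 Vsig4 KO cells.

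Neutrophils went the other way, in few cells. The summed members were at 4649 CPM in 50 WT cells and 3226 CPM in 41 Vsig4 KO cells, a ratio of 0.694 (0.602 to 0.799). Of 10 measured members 0 were called higher and 4 lower (Isg15, Oasl1, Rsad2, Isg20), where 7.74% of 1434 measured genes were called higher and 12.6% lower. The median log2 ratio was -0.70 against -0.08 over all genes.

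Isg15 had 60 UMIs in 10 WT neutrophils and 32 UMIs in 11 Vsig4 KO neutrophils, a ratio of 0.596 (0.375 to 0.930), with 20 UMIs in 1 WT cell. Oasl1 had 34 UMIs in 5 WT cells, 21 of them in 1 cell, and 5 UMIs in 4 Vsig4 KO cells. Rsad2, or viperin, which makes a chain-terminating nucleotide, had 22 UMIs in 13 WT cells and 6 UMIs in 2 Vsig4 KO cells, a ratio of 0.305 (0.101 to 0.775). Of the 4, it was the one held by the most WT cells. Isg20 had 16 UMIs in 8 cells and 5 in 5 cells. At 1000 UMIs the share with an Isg15 UMI was 15.6% of WT and 20.0% of Vsig4 KO neutrophils, the opposite order from its CPM, so no order is read from it. Without the 1 cell per library with the highest share of member UMIs, 1 member was still called lower and the summed ratio was 0.798. Ifngr1, a receptor chain for interferon-gamma, was called higher in neutrophils (99.3 and 252.0 CPM), and the stress genes stood at 12962 and 10132 CPM.

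Classical monocytes had a slightly lower sum, with higher levels of the sensor Ifih1 and the OAS family gene Oasl1. The sum ratio was 0.937 (0.917 to 0.957), and without Ifitm3, which gave 49.9% of member UMIs in WT and 46.7% in Vsig4 KO, it was 0.998. Of 36 measured members 4 were called higher (Ifih1, Ifit1, Ifit3, Oasl1) and 1 lower (Stat2), where 3.37% of 9067 genes were called higher and 3.75% lower. The median log2 ratio was -0.01 against -0.03 over all genes.

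Ifih1, which encodes the double-stranded RNA sensor MDA5, had 243 UMIs in 131 of 503 WT monocytes and 287 UMIs in 88 of 196 Vsig4 KO monocytes. Its ratio was 2.52 (2.12 to 3.01), and the share of monocytes with a UMI was 26.0% and 44.9%, or 7.26% and 11.3% at 1000 UMIs. Oasl1 had 146 UMIs in 60 cells and 132 in 53 cells, a ratio of 1.93 (1.52 to 2.46). Ifit1 had 32 UMIs in 13 cells and 43 in 11 cells, with 20 in 1 Vsig4 KO cell. Ifit3 had 57 UMIs in 18 WT cells and 46 in only 5 Vsig4 KO cells, with 28 in one of them. Its ratio of 1.73 became 0.717 without the 1% of cells with the most member UMIs. Stat2, part of the interferon complex, had 177 UMIs in 119 cells and 54 in 38 cells, a ratio of 0.652 (0.472 to 0.889).

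Interferon beta itself could be counted in these cells. Ifnb1 had 13 UMIs in 8 of 503 WT monocytes and 42 UMIs in 17 of 196 Vsig4 KO monocytes, a ratio of 6.91 (3.64 to 14.0). Cxcl10, a chemokine induced by both kinds of interferon, had 1310 UMIs in 146 cells and 1605 in 93 cells, a ratio of 2.62 (2.43 to 2.82). Cgas, the cytosolic DNA sensor, was called lower with 55 and 8 UMIs. Ifnar1, Ifnar2, Jak1 and Tyk2 were not called. Neutrophil gene S100a8 stood at 13.7 and 146.7 CPM in these monocytes, and its part in the differences was not tested.

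Macrophages had nearly equal sums (4027 and 4163 CPM, ratio 1.03, 0.991 to 1.08). Of 35 measured members 1 was called higher and 4 lower, where 3.02% of 7550 genes were called higher and 5.06% lower. Ifih1 was the one called higher, with 131 UMIs in 33 WT cells and 140 in 27 Vsig4 KO cells (ratio 1.52, 1.19 to 1.94). A single Vsig4 KO macrophage held 44 of those UMIs. Irf9, the DNA-binding part of the interferon complex, was lower with 60 UMIs in 49 cells and 20 in 16 cells (0.474, 0.270 to 0.797). Herc6, the ligase that attaches Isg15 in the mouse, had 21 and 3 UMIs, Ifit3 27 and 6 UMIs, and Rtp4, a membrane protein gene, 76 and 33 UMIs (0.617, 0.397 to 0.940). Ifnb1, with 17 and 18 UMIs in 8 and 5 macrophages, was not called, and Sting1 was called lower (37.7 and 20.8 CPM).

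Among conventional dendritic cells, type 1 cells (72 and 37 cells) had 19 measured members. None was called higher and 2 lower, where 6.44% of 6150 genes were called higher and 2.5% lower. Stat2 was at 74.4 and 42.9 CPM (0.576, 0.332 to 0.965). Isg15 had 54 UMIs in 12 WT cells, 19 of them in one, and 11 UMIs in 5 Vsig4 KO cells (0.319, 0.150 to 0.616). In cDC2 (197 and 120 cells) only Ifih1 of 31 measured members was called, higher with 71 and 77 UMIs in 45 and 44 cells (1.51, 1.08 to 2.11), where 3.82% of 8343 genes were called higher and 2.79% lower. The cDC2 sums differed by a ratio of 1.01 (0.974 to 1.04). Mature dendritic cells (50 and 49 cells) had 9 measured members, 2 of them called higher and 0 lower, where 5.1% of 3490 genes were called higher and 5.33% lower. They were Isg15 with 20 UMIs in 8 cells and 40 in 10 cells, and Ifi27l2a with 11 UMIs in 7 cells and 38 in 13 cells.

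The B cells were the largest class (1750 and 1881 cells), with most members low in both libraries. The sum ratio was 0.949 (0.921 to 0.978). Of 34 measured members 0 were called higher and 4 lower, where 3.75% of 10759 genes were called higher and 2.81% lower. Rsad2 had 30 UMIs in 19 WT cells and 6 in 6 Vsig4 KO cells (0.158, 0.0537 to 0.385). Ifitm3 had 216 UMIs in 78 cells, 41 of them in one, and 91 in 51 cells. Ifitm3 was much higher in classical monocytes. Lyz2, a myeloid transcript that B cells should lack, stood at 58.4 and 16.7 CPM in the same B cells. Slfn1 had 17 and 6 UMIs and Rtp4 55 and 39 UMIs. Erythroid genes summed to 246.8 and 4.88 CPM in B cells. The part of myeloid or erythroid RNA in the called members was not tested.

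T cells were compared between the libraries class by class. In CD8 T cells (514 and 496 cells) 2 of 35 measured members were called higher and 1 lower, where 3.43% of 9648 genes were called higher and 2.36% lower. Oas1a had 29 UMIs in 23 cells and 51 in 36 cells (1.64, 1.02 to 2.68). Ifitm3 had 19 UMIs in 19 WT cells and 44 in 12 Vsig4 KO cells, 21 of them in one cell. Slfn5 was lower, with 47 UMIs in 24 cells and 28 in 20 cells (0.555, 0.334 to 0.904). In conventional CD4 T cells (276 and 355 cells) none of 32 measured members was called in either direction, where 3.82% of 8722 genes were called higher and 3.43% lower, and the sum ratio was 0.992 (0.946 to 1.04).

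In regulatory T cells (46 and 56 cells) the sum was lower in Vsig4 KO, at 3646 and 2717 CPM (0.745, 0.678 to 0.819). The member with the most UMIs there was Ifi27l2a, at 2161 and 1454 CPM, a ratio of 0.673 that lies just outside the calling rule. Without it the sum ratio was 0.851. Of 17 measured members 0 were called higher and only Slfn8 lower (19 UMIs in 13 cells and 7 in 6 cells), where 5.16% of 4481 genes were called higher and 7.03% lower.

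The T cells that could not be placed by Cd4, Cd8 or Foxp3 UMIs (500 and 508 cells) had 6 of 33 measured members called higher and 1 lower, where 3.43% of 9339 genes were called higher and 3.67% lower. Isg15 had 142 UMIs in 79 WT cells and 361 UMIs in 124 Vsig4 KO cells (2.21, 1.81 to 2.70). Here the positive cells were more frequent, at 15.8% and 24.4%, or 5.14% (3.36 to 7.50%) and 11.9% (9.22 to 15.1%) at 1000 UMIs. Irf7 had 51 and 97 UMIs in 43 and 69 cells (1.65, 1.17 to 2.37). Ifih1 (2.28), Herc6 (1.52), Ifit1 (2.82) and Ifit2 (1.98) were called higher as well, though Ifit1 had a ratio of 0.738 with every cell at 1000 UMIs. Stat2 was called lower with 51 and 34 UMIs. In NK cells with ILC1 (527 and 406 cells) Usp18 was called higher (14 and 23 UMIs, 13 and 18 cells) and Stat2 lower (62 and 30 UMIs, 51 and 29 cells), of 24 measured members, where 3.24% of 9049 genes were called higher and 3.39% lower.

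**Figure D4:**
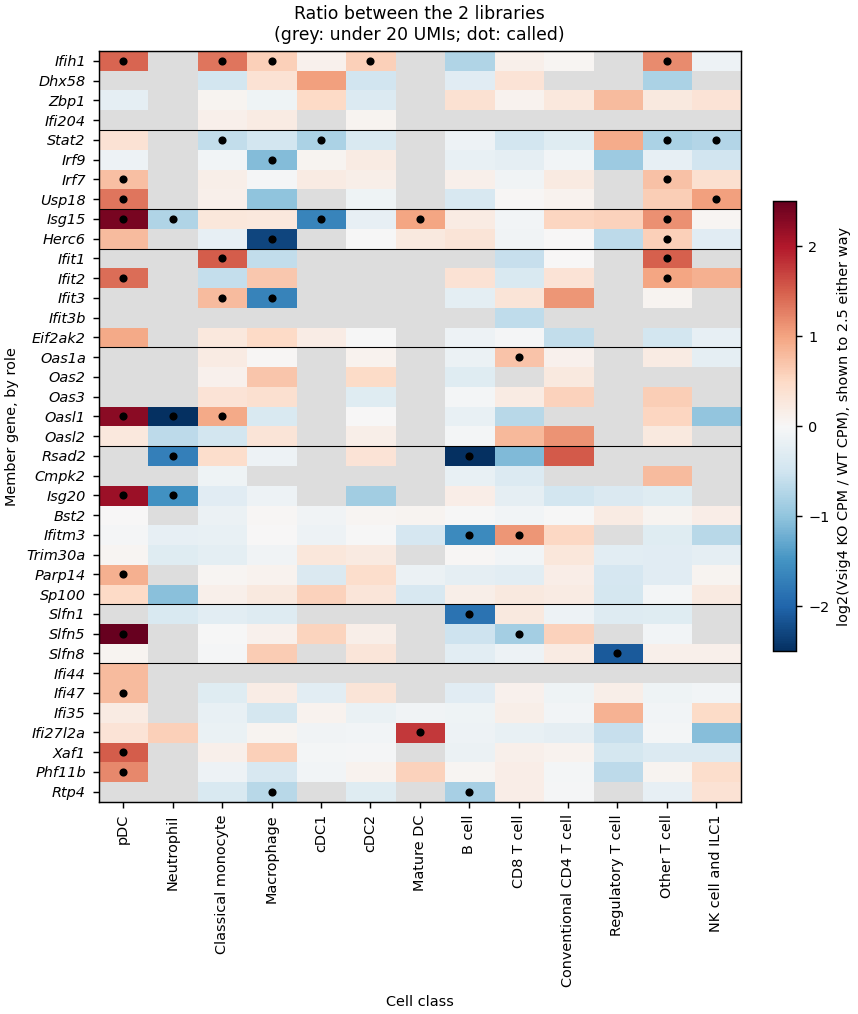
log2 of the Vsig4 KO to WT CPM ratio (colour, shown to 2.5 either way) of the 38 members (rows, by role) in the 13 compared cell classes (columns); grey marks fewer than 20 UMIs and a black dot a called member. The pDC column holds 12 dots, all on the higher side, and the neutrophil column 4, all on the lower side.

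Read by gene, Ifih1 and Stat2 were the members called in one direction in the most classes. Ifih1 was called higher in 5 of the 10 classes where it was measured (pDC, classical monocytes, macrophages, cDC2 and other T cells), and its ratio was above 1 in 8 of the 10. Among the 5702 genes measured in at least 10 classes, 0.807% were called higher in 5 or more. The calls in macrophages and cDC2 lay at the 1.5-fold limit: the ratio was 1.49 in macrophages and 1.45 in cDC2 with the total that leaves out mitochondrial, ribosomal, heat-shock, haemoglobin and immunoglobulin genes. In cDC2 it was also under the limit with median-ratio scaling (1.47) and at 5% mitochondrial UMIs (1.49), and in macrophages without the 5% of cells with the most distinct members (1.21). Stat2 was called lower in 4 of 11 classes (classical monocytes, cDC1, other T cells and NK cells with ILC1), with a ratio below 1 in 9 of the 11. Of the same 5702 genes 0.579% were called lower in 4 or more. Ifih1 and Stat2 are named as the most often called of the 38, and the limits of 5 and 4 are their own counts. The 2 shares thus do not measure how unusual either gene is. The Stat2 call in classical monocytes was lost at ratios of 0.679 with gates of 4 markers, 0.679 at 5% mitochondrial UMIs and 0.686 without the 5% of cells with the most distinct members. The interval in cDC1 reached 1.02 with gates of 4 markers and 1.21 without those 5% of cells. The 2 classes with Stat2 above 1 were pDC (1.29) and regulatory T cells (1.89). Isg15 was called higher in 3 classes (pDC, mature dendritic cells, other T cells) and lower in 2 (neutrophils, cDC1) of the 13. Of the 38 members 18 were called higher in at least one class, 13 lower in at least one, 7 both ways, and 14 were called in none. Of the 12401 genes measured in at least 1 class, 21.6% were called higher somewhere, 21.6% lower somewhere, 4.18% both ways and 60.9% in none, and genes differ in how many classes measured them. The 14 included Bst2, Sp100, Trim30a and Zbp1. All classes of a library share that library's preparation, so classes are not replicates of the genotype.

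The lists of other pathway genes held 100 genes found in the matrices, and their calls followed no single direction over the classes. The share of all genes called is the one given above for each class. It ran from 3.02% (macrophages) to 7.74% (neutrophils) higher and from 2.36% (CD8 T cells) to 12.6% (neutrophils) lower. In B cells 2 of 81 were called higher, where 3.75% of all genes were. Single genes below are therefore listed as calls only. In neutrophils 4 of 20 measured were called higher and 0 lower: Ifngr1, Cd274 (17 and 32 UMIs), Ifitm6 (32 and 72 UMIs) and Shisa5 (7 and 20 UMIs). In classical monocytes 6 of 84 were called higher and 3 lower. Besides Ifnb1, Cxcl10 and Cgas these were Socs3 (ratio 1.53), Ifi205 (1.54), Ifitm1 (1.71) and Gbp5 (1.65) on the higher side, and Cd274 (0.594) and Cxcl9 on the lower. Cxcl9, a chemokine that leans to interferon-gamma, had 109 UMIs in 14 WT monocytes and 6 UMIs in 3 Vsig4 KO monocytes.

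Cxcl9 had opposite directions in macrophages and dendritic cells. In macrophages, where 2 of 78 genes were called higher and 6 lower, it had 144 UMIs in 21 cells and 290 in 12 cells (2.86, 2.34 to 3.52). Ifi205 was the other one higher (2.22), and besides Sting1 the lower ones were Pias1 (0.603), Trim30d (0.485), Ciita (0.451), Cd274 (0.647) and Ifitm1, with 79 and 10 UMIs. In cDC1 3 of 68 genes were called higher and 6 lower. Cxcl9 had 261 UMIs in 12 WT cDC1 and 6 UMIs in 2 Vsig4 KO cDC1 (0.0359, 0.0131 to 0.0793). Iigp1 had 27 UMIs in 4 cells and 1 UMI in 1 cell. Irf1 (0.478), Ly6a (0.466), Ly6c2 (0.290) and Cd274 (22 and 3 UMIs) were lower too. Tbk1, a kinase that activates interferon regulatory factors (15 and 30 UMIs), Ifitm1 (2.28) and Trim21 (6 and 14 UMIs) were higher. Ifitm1 had 35 UMIs in 12 WT cDC1 and 51 UMIs in only 5 Vsig4 KO cDC1. In cDC2, with 3 of 73 higher and 2 lower, Socs3 (1.65), Ptpn6 (1.54) and the RNA sensor gene Ddx58 (17 and 29 UMIs) were higher, and Cxcl10 (0.650) and Cxcl9 (157 UMIs in 7 cells and 28 in 6 cells) lower. Mature dendritic cells had 4 of 43 higher (Socs3, Ifi27, Ly6e and Ms4a4c, ratios from 2.25 to 3.17) and 3 lower (Ifi209, Uba7 and Nlrc5, from 0.474 to 0.563). Of the higher ones, Ly6e had 22 UMIs in 7 WT cells and 50 in 6 Vsig4 KO cells. Ms4a4c had 6 UMIs in 3 cells and 18 in 5 cells, Socs3 11 in 8 and 27 in 10, and Ifi27 5 in 5 and 16 in 12.

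Among B cells 2 of 81 genes were called higher, Tlr9 (69 UMIs in 65 cells and 157 in 137 cells) and Ly6c2 (76 UMIs in 44 cells and 428 in 69 cells). The 5 lower were Ifi207 (17 and 3 UMIs), Ifi208 (0.661), Ifitm1 (0.158), Ifitm2 (0.202) and Cxcl10 (16 and 7 UMIs). Of B cells, 15 WT and 8 Vsig4 KO cells held Ifitm1 (70 and 14 UMIs), and 43 and 31 held Ifitm2 (121 and 31 UMIs). Neutrophils had 2807 and 2833 CPM of Ifitm1 and 2898 and 3095 CPM of Ifitm2. The part of myeloid RNA in the B cell values of both genes, as for the member Ifitm3, was not tested. In CD8 T cells, with 4 of 80 higher and 3 lower, Ifitm1 (2.34) and Ifitm2 (3.60) were higher, each with its Vsig4 KO UMIs in 8 cells, as were Ifngr2 (2.44) and Irf5 (8 and 26 UMIs). Irgm2 (0.555), Iigp1 (0.259) and Cxcl10 (0.278) were lower.

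Both chains of the interferon-gamma receptor were called higher in conventional CD4 T cells. Ifngr1 had 487 UMIs in 169 cells and 1289 in 279 cells (1.81, 1.63 to 2.01), and Ifngr2 had a ratio of 1.80. Socs3, Trim25, Ly6c2, Daxx and Cd274 were also higher there (ratios from 1.58 to 1.72), which made 7 of 74, and Oas1c, Ifitm2 and Cxcl10 were lower (from 0.293 to 0.370). Regulatory T cells had 2 of 49 higher, Apobec3 (1.68) and Ifitm2 (0 UMIs and 44 UMIs in 7 cells), and 3 lower, Ifi209 (0.387), Nlrc5 (0.521) and Ifng (30 UMIs in 4 cells and 11 in 5 cells). Other T cells had Ifngr2 (1.84) and Ifitm2 (2.01) higher and Mavs, Trim21, Ms4a4c, Gbp6 and Cxcl10 lower, of 77, Cxcl10 with 72 UMIs in 14 cells and 5 in 5 cells. NK cells with ILC1 had 0 of 73 higher and 3 lower, Ikbke (0.330), Parp10 (0.486) and Trim34a (0.579).

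Over all kept cells the summed members stood at 3628 CPM in WT and 2899 CPM in Vsig4 KO, a ratio of 0.799 (0.791 to 0.807). The mix of cells differed as well: classical monocytes, the class with the highest level, were 7.75% of WT and 3.58% of Vsig4 KO cells, and within them the ratio was 0.937. Ifitm3 shows the same contrast, at 0.551 over all cells and 0.876 within classical monocytes.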

How the data were processed

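The deposited files are filtered UMI count matrices per gene and cell, 1 per library, and per the submitters' processing notes they were made with Cell Ranger 7.1.0 and mm10. The gene annotation is not given in the sources used here. The deposited counts were used unchanged. Cells with at least 200 genes, 500 UMIs and at most 10% mitochondrial UMIs were kept. The doublet scorer of scanpy 1.11.5 marked 0 and 1 barcodes by its own threshold, so it had not worked, and the highest scores were removed at 0.8% per 1000 barcodes instead (381 WT and 267 Vsig4 KO). Cells with markers of more than one lineage or of T and NK cells together, and cells tied between myeloid classes, were left out (245 WT and 194 Vsig4 KO).

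Per class and library UMIs were summed and scaled to CPM, with Poisson intervals for levels, exact conditional binomial intervals for ratios and Clopper-Pearson intervals for shares, all at 95% (scipy 1.17.1). The calling rule was run on simulated independent Poisson counts. These do not cluster in cells and hold no difference between preparations, so they say nothing on whether the intervals are wide enough here. Positions are from GENCODE M21 and promoters from RefSeq (GRCm38.p6). Named with values are the 8 members with the most UMIs, the called members, those with a set role in the pathway and called genes of the pathway lists. The members, gates, lists and thresholds were chosen with earlier results of these data known. One gene of the pathway lists is not reported here.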

Additional observations from a re-analysis of the deposited data

How the results depend on the processing

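No paired analysis was possible because each genotype has 1 library and the labels carry no replicate numbers. Each choice was changed alone. The share of all genes called is given for the main rule only. Counts of called members under the changed settings thus have no share beside them, and no result about the members is read from them. The summed ratio gave 92 of 117 values within the reported counting interval, and the counts of called members gave 193 of 260 within 1.5 times. Of 381 ratios of single members 356 stayed the same by the rule used, 21 moved and 4 reversed. With cells at 1000 UMIs 34 stayed, 10 moved and 1 reversed. The cause of these changes was not tested. The settings that leave out the cells or the member with the most member counts pick them by those same counts. They describe how concentrated a difference was. Depth limits the neutrophils most. Every interval covers counting error only, and neither mice nor preparations can be told apart from genotype.

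Without the 5% of cells with the most distinct members (added after seeing the data) the summed ratio was 1.06 in pDC, 0.969 in classical monocytes, 1.09 in macrophages, 1.005 in mature dendritic cells, 0.984 in B cells, 0.927 in conventional CD4 T cells and 0.980 in other T cells. The members called higher were then 0 in pDC, 2 in macrophages, 2 in cDC1, 1 in mature dendritic cells, 1 in conventional CD4 T cells, 3 in other T cells and 0 in NK cells with ILC1. Those called lower were 2 in neutrophils, 0 in classical monocytes, 1 in macrophages, 0 in cDC1, 1 in mature dendritic cells, 0 in regulatory T cells and 2 in other T cells. Ifit2 in pDC reversed to 0.136 and Ifit3 in classical monocytes to 0.611.

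Without the 1% of cells with the most member UMIs, Ifit3 in classical monocytes reversed to 0.717 and the summed ratio of conventional CD4 T cells was 0.946. The members called higher were 3 in macrophages, 1 in mature dendritic cells, 1 in CD8 T cells and 0 in NK cells. Those called lower were 1 in neutrophils, 2 in classical monocytes, 1 in cDC1, 1 in mature dendritic cells, 1 in conventional CD4 T cells, 2 in other T cells and 3 in NK cells.

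With cells at 1000 UMIs the summed ratio was 0.915 in classical monocytes, 0.894 in macrophages, 0.685 in cDC1, 0.972 in cDC2, 0.923 in CD8 T cells and 0.871 in regulatory T cells. It reversed to 1.01 in B cells, and Ifit1 in other T cells reversed to 0.738. Without the member with the most UMIs it was 1.45 in pDC, 0.998 in classical monocytes, 1.04 in CD8 T cells, 1.09 in conventional CD4 T cells and 0.851 in regulatory T cells.

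Gates of at least 4 markers gave summed ratios of 0.519 in neutrophils and 1.59 in mature dendritic cells. The members called higher were then 2 in macrophages, 1 in cDC1, 0 in CD8 T cells and 2 in conventional CD4 T cells, and those called lower 0 in classical monocytes, 2 in macrophages, 2 in regulatory T cells and 2 in NK cells.

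A total without mitochondrial, ribosomal, heat-shock, haemoglobin and immunoglobulin genes gave summed ratios of 0.903 in classical monocytes, 0.967 in cDC2 and 0.950 in CD8 T cells. It gave 0 members higher in macrophages, cDC2 and NK cells, 1 higher in CD8 T cells and 2 lower in NK cells. Median-ratio scaling gave 1 higher in neutrophils, 2 in macrophages and 0 in cDC2. It moved the median of all genes by less than 0.1 (log2) in every class.

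At 50 UMIs per gene the members called higher were 7 in pDC, 1 in mature dendritic cells and 0 in NK cells, and those called lower 1 in neutrophils, 2 in macrophages, 2 in B cells and 0 in regulatory T cells. With no minimum, cDC2 had 2 higher and 2 lower, mature dendritic cells 4 higher and NK cells 2 lower. At 2-fold, those called higher were 2 in classical monocytes, 0 in macrophages, 0 in cDC2, 1 in mature dendritic cells, 1 in CD8 T cells and 3 in other T cells. Those called lower were 0 in classical monocytes, CD8 T cells, other T cells and NK cells, and 1 in cDC1. At 5% mitochondrial UMIs, classical monocytes had 0 lower and cDC2 0 higher. With no removal by doublet score, neutrophils had 1 higher and CD8 T cells 0 lower.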
